A study of Arabidopsis thaliana with 10 samples.

Results

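A set of 48 probe sets stood out in Arabidopsis thaliana leaves as higher in NahG plants, little changed between leaf stages in wild type, and not clearly lower in coi1. The members were chosen by these values. On log2(signal + 16), they were at least 1 higher in NahG than in wild type at stage 6.0. Their wild type means at stage 6.0 and stage 3.9 differed by no more than 0.5, and coi1 minus wild type at stage 6.0 was above -0.5. Of the 22810 probe sets on the array, 12184 reached 50 on 2 arrays or more and were tested, and the members were 0.394% of these. At least 1 higher in NahG were 295 tested probe sets (2.42%), of which 165 were more than 0.5 lower at stage 6.0 than at stage 3.9 in wild type and 47 more than 0.5 higher. Of the 83 that remained, 33 were at or under -0.5 in coi1. AT3G27400 and THI2.1 met the 3 thresholds and were left out by name, and AT1G54020, also named for exclusion, missed the stage limit at -0.70.

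RNA of fully expanded leaves was hybridised to 10 Affymetrix arrays, 2 in each of 5 groups. NahG transgenic plants, ein2 plants and coi1 plants were sampled at developmental stage 6.0, all in the Columbia background, and wild type plants at stages 6.0 and 3.9. All were untreated plants grown on compost. NahG arrays carried no stock code, and no promoter of the transgene was named in the labels. The labels call the ein2 and coi1 lines transgenic as well, name no allele, and give both the same stock code, N3071. In both wild type groups array 1 was of stock N933 (Col-0) and array 2 of stock N1644, which was called Col-5 at stage 3.9 and Col-0 at stage 6.0. Whether both arrays of a group came from separate plants is not stated in the labels. The p-values therefore measure only the spread between these arrays, which may be technical. In both wild type groups this spread also holds any difference between the 2 stocks.

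NahG is a bacterial salicylate hydroxylase, and plants that carry it turn salicylic acid into catechol. Salicylic acid signalling is known in Arabidopsis leaves to hold down part of the jasmonate and ethylene defence output, such as the defensin PDF1.2. COI1 is the F-box protein through which jasmonate is perceived, and EIN2 is a membrane protein needed for the ethylene response. The mutated genes EIN2 and COI1 are unnamed among the probe sets here, so these genotypes were not checked against their own transcripts.

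Among the 48 members, 30 probe sets named 1 gene, 1 named both AT1G03220 and AT1G03230, and 17 had no gene name in the platform table. Only 5 carried a gene symbol: PDF1.4, PYK10, BGLU15, STR18 and CLE44. The other 25 were known by locus alone, and the protein families given for them here are background knowledge, not taken from the files. The 32 named genes lay on all 5 chromosomes, with 11 on chromosome 1, 8 on 2, 3 on 3, 3 on 4 and 7 on 5. Of the members, 2 were of the probe type that can match several transcripts, among them the probe set of AT1G03220 and AT1G03230, whose signals cannot be told apart there.

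Outside NahG, many but not all members had low signals. Signals are MAS5 units with a trimmed mean of 100 on each array, and levels of different probe sets are not comparable as amounts of RNA. The median of the members' mean signals was 156 in NahG, 53.7 in ein2, 41.9 in coi1, 43.1 in stage 6.0 wild type and 53.0 in stage 3.9 wild type. Over all tested probe sets these medians were 105 in NahG, 108 in ein2, 113 in coi1, 111 in wild type at stage 6.0 and 103 at stage 3.9. All 48 members read 50 or more on both NahG arrays, and 20 did so on both wild type arrays at stage 6.0. In that wild type group 26 members had a mean under 50, 6 of them under 16, and 22 a mean of 50 or more. The filter was passed only through the NahG arrays by 21 members, which therefore had to be high there.

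A minority of the members differed widely between NahG and wild type. On the log2 scale with 16 added, the difference from wild type at stage 6.0 was 2 or more for 14 members, between 1.5 and 2 for 3, and below 1.5 for 31. The median difference was 1.32 over the members, against 0.01 over all tested probe sets, and the highest was 4.21. Both NahG arrays read above all 8 other arrays for 45 of the 48 members, beside 5.34% of all tested probe sets. These values chose the members and are given without a test. NahG array 1 read above NahG array 2 for 40 of the 48, against 53.7% of all tested probe sets, and the median gap between the 2 arrays was 0.23 over the members and 0.03 over all.

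**Figure D1:**
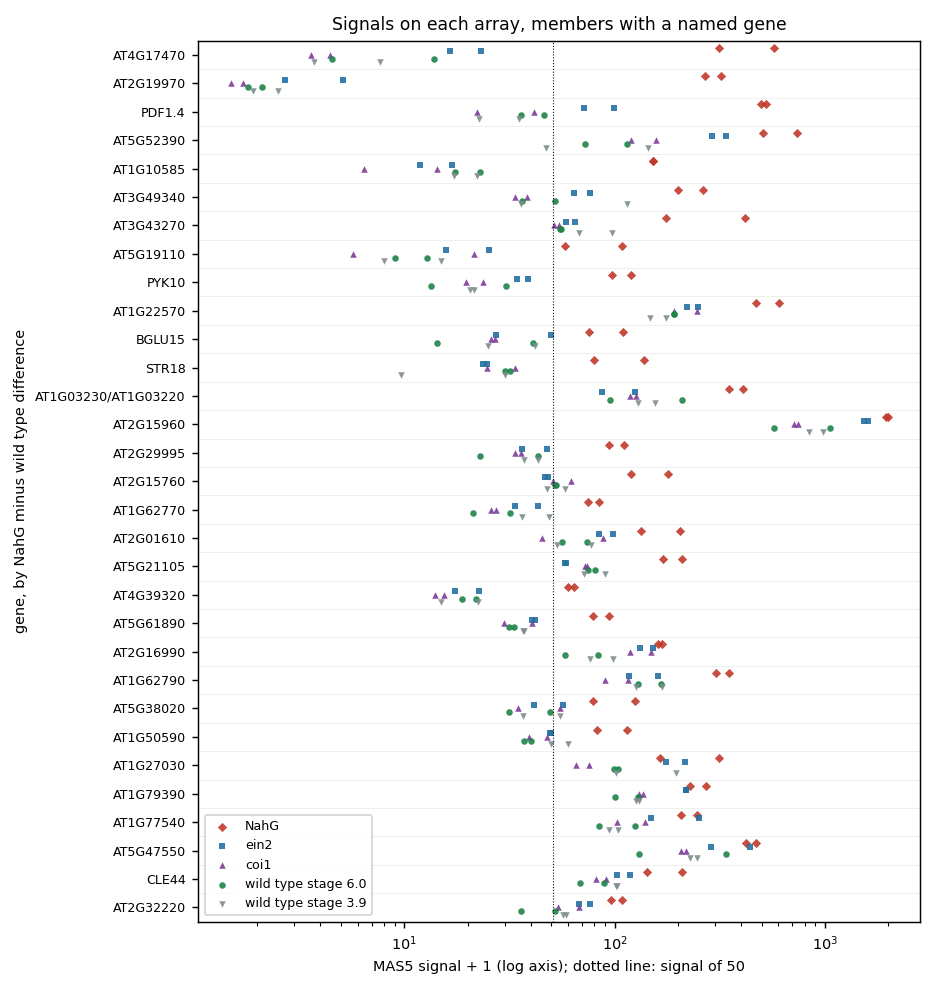
Signals on each of the 10 arrays, with 1 added for the log axis, for the 31 members whose probe set names a gene; each row is a gene, ordered by NahG minus wild type difference, and symbols mark the 5 groups. The NahG symbols lie to the right of the others in most rows, and the widest gaps, 4.21 and 4.19 on log2(signal + 16), are those of AT4G17470 and AT2G19970.

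The 2 largest differences belonged to genes whose probe sets were close to the bottom of the scale without NahG. AT4G17470, of an alpha/beta hydrolase family with palmitoyl-protein thioesterases, read 570.4 and 312 in NahG, 15.5 and 22.2 in ein2, 3.42 and 2.62 in coi1, 12.9 and 3.52 in stage 6.0 wild type, and 6.66 and 2.72 in stage 3.9 wild type. Both NahG arrays were far above the other 8, among which ein2 was the highest. Its difference of 4.21 is a fold of 18.5 with 16 added to each signal. Adding 16 shrinks a fold between signals this low, and with 1 added the difference was 5.74. AT2G19970, a member of the CAP family related to pathogenesis-related protein 1, read 269 and 319.7 in NahG, 4.13 and 1.71 in ein2, 0.704 and 0.504 in coi1, 1.11 and 0.805 in stage 6.0 wild type, and 0.908 and 1.51 in stage 3.9 wild type. No array outside NahG exceeded 4.13 for this gene, and its difference was 4.19, or 7.24 with 1 added. Both differences with 1 added rest on readings near the bottom of the scale.

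AT2G19970 lies near another PR-1 relative that read high in NahG. Between it and PR-1-LIKE (AT2G19990) the TAIR10.1 annotation places 1 protein gene, AT2G19980. PR-1-LIKE read 505 and 341 in NahG, 38.2 and 33.2 in ein2, 15.4 and 11.2 in coi1, 24.5 and 28.8 in stage 6.0 wild type, and 37.7 and 22.6 in stage 3.9 wild type. Its NahG difference was 3.34, and it fell just outside the members because coi1 minus wild type was -0.54. The gene between them, AT2G19980, read 2.92 and 2.31 in NahG, against 1.51 and 1.61 in wild type leaves of stage 6.0. None of the 10 arrays reached 50 for it. The high NahG signal of both neighbours was thus not seen at the gene between them.

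PDF1.4 was the defensin among the members. It encodes a small cysteine-rich antimicrobial-type peptide of the family that holds PDF1.2. PDF1.4 read 522 and 495 in NahG, 70.2 and 98.7 in ein2, 21.2 and 40.2 in coi1, 45.2 and 34.7 in stage 6.0 wild type, and 34.2 and 21.7 in stage 3.9 wild type. The ein2 arrays stood above all coi1 and wild type arrays. The difference was 3.23 in NahG, a fold of 9.41 with 16 added, -0.28 in coi1, and 0.36 between wild type stages.

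PDF1.2 and PDF1.2b, the other tested genes with a PDF symbol, were not members. PDF1.2 read 4246 and 4021 in NahG, 20.7 and 5.64 in ein2, 7.74 and 16.3 in coi1, 239 and 156 in stage 6.0 wild type, and 1277 and 167 in stage 3.9 wild type. Its NahG difference was 4.31 ± 0.67 (SE) with a limma adjusted p of 0.00226. PDF1.2b, a close copy whose probe set may share target with PDF1.2, differed by 4.05 ± 0.58 with an adjusted p of 0.00137. In ein2 the differences from wild type at stage 6.0 were -2.89 ± 0.67 for PDF1.2, with an adjusted p of 0.142, and 0.84 ± 0.24 for PDF1.4, with an adjusted p of 0.243 in the same limma fit. Neither passed, and the difference between these genes was not tested. PDF2.1 and PDF2.5 did not reach the signal filter. Defensins named by LCR symbols included LCR69, at 1.49 in NahG (adjusted p = 0.136 in limma) and -0.13 in ein2, and LCR68, at 0.29 in NahG (adjusted p = 0.47) and 0.58 in ein2 (adjusted p = 0.413), and neither passed in either comparison. LCR67 did not reach the filter.

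Further named members were more than 2 higher in NahG. AT5G52390, of the PAR1 family, read 736 and 508 in NahG, 291 and 339 in ein2, 156 and 119 in coi1, 113 and 71.4 in stage 6.0 wild type, and 143 and 46.3 in stage 3.9 wild type. Here ein2 was intermediate, above every wild type and coi1 array and below both NahG arrays, and the NahG difference was 2.56. AT3G49340, a papain-like cysteine protease, read 261 and 199.8 in NahG, 75.7 and 63.1 in ein2, 32.8 and 37.5 in coi1, 51.1 and 35.3 in stage 6.0 wild type, and 113 and 34.8 in stage 3.9 wild type. Its difference was 2.06, and the stage 3.9 arrays of wild type differed from each other more than the ein2 and wild type means did.

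A transcription factor of the bHLH family, AT1G10585, gave almost equal readings on the NahG arrays. It read 150.4 and 151 in NahG, 15.8 and 10.9 in ein2, 13.4 and 5.44 in coi1, 21.9 and 16.5 in stage 6.0 wild type, and 21.3 and 16.2 in stage 3.9 wild type. Outside NahG every array was below 22, and the difference of 2.25 was accompanied by -0.48 in coi1, the lowest coi1 value of any member. AT5G61890, an AP2/ERF-type factor, was at 93.5 and 78 in NahG, 40.8 and 39.7 in ein2, 39.3 and 28.7 in coi1, and 32.3 and 30.6 in wild type at stage 6.0, a difference of 1.1.

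**Figure D2:**
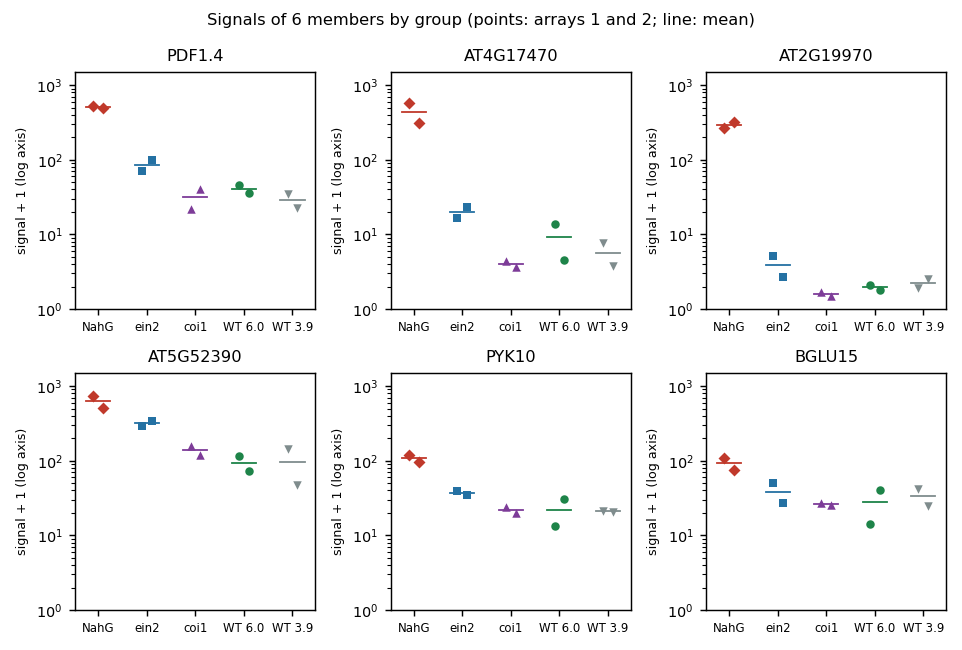
Signal with 1 added, on a common log axis, of 6 members in the 5 groups; points are arrays 1 and 2 and lines their mean. In PDF1.4, AT4G17470 and AT2G19970 the NahG arrays lie far above all others, in AT5G52390 the ein2 arrays at 291 and 339 lie between NahG and wild type, and in PYK10 and BGLU15 all non-NahG arrays read below 50.

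A pectin methylesterase and a pair of genes from the family of its inhibitors were members, none of them on the pectin and cell wall list. AT3G43270, a pectin methylesterase, read 416 and 175 in NahG, 57.9 and 63.7 in ein2, 50.3 and 53.4 in coi1, 54.7 and 53.7 in stage 6.0 wild type, and 95.8 and 66.9 in stage 3.9 wild type. Its difference was 2.03, and its NahG arrays differed by 1.18, the widest gap between NahG arrays among the members. AT1G62770 and AT2G01610 belong to the inhibitors of that enzyme class. AT1G62770 read 83.2 and 73.6 in NahG, 42.2 and 32.4 in ein2, 26.3 and 24.8 in coi1, 20.2 and 30.7 in stage 6.0 wild type, and 47.8 and 35.3 in stage 3.9 wild type. AT2G01610 read 204 and 133 in NahG, 97.7 and 83.3 in ein2, 87.2 and 44.3 in coi1, 55.1 and 73.3 in stage 6.0 wild type, and 76.1 and 52.1 in stage 3.9 wild type. Their NahG differences were 1.2 and 1.18, with no overlap between the NahG arrays and any other array.

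Peptidase-like and transport genes were also among the members. AT5G19110, of the aspartyl protease family, read 107 and 57.4 in NahG, 14.8 and 24.4 in ein2, 4.72 and 20.4 in coi1, 11.8 and 8.05 in stage 6.0 wild type, and 13.9 and 7.05 in stage 3.9 wild type. The shared probe set of AT1G03220 and AT1G03230, relatives of the same family that adjoin each other, read 407 and 349 in NahG and 208 and 94.4 in wild type at stage 6.0. Its difference of 1.32 was 0.81 without wild type array 2. AT1G22570, of the NRT1/PTR transporter family, read 603 and 469.7 in NahG, 247 and 220.1 in ein2, 247 and 191 in coi1, 189.6 and 189.6 in stage 6.0 wild type, and 146 and 175 in stage 3.9 wild type. Its difference was 1.41, with all 8 arrays outside NahG between 146 and 247. AT5G47550, a cystatin that inhibits cysteine proteases, was at 471 and 421 in NahG and at 338 and 129.5 in wild type at stage 6.0. Its difference was 1.02, 0.38 without wild type array 2 and 1.67 without wild type array 1.

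PYK10 and BGLU15 are beta-glucosidases, and PYK10 is known as the main enzyme of ER bodies in roots. PYK10 read 118 and 95.8 in NahG, 37.7 and 33.3 in ein2, 22.7 and 18.7 in coi1, 12.5 and 29.4 in stage 6.0 wild type, and 20.4 and 19.7 in stage 3.9 wild type. BGLU15 read 108 and 74.3 in NahG, 48.6 and 26.2 in ein2, 25.9 and 24.8 in coi1, 13.4 and 39.8 in stage 6.0 wild type, and 41.1 and 24.1 in stage 3.9 wild type. The NahG arrays of both lay above all others, with differences of 1.77 and 1.39, and that of BGLU15 was 0.92 without wild type array 1. Of 21 beta-glucosidase genes named on the array, 12 were tested and 3 were at least 1 higher in NahG. The third was BGLU46 at 1.35, which stood 1.59 higher at stage 6.0 than at stage 3.9 in wild type. Non-members ran down to -1.74 for BGLU31. Of all tested probe sets 2.42% were at least 1 higher in NahG. All 3 genes passed the signal filter only through the NahG arrays, so they had to be high there to be tested. PYK10 and BGLU15 were also chosen by this threshold. The count therefore cannot show whether the family was higher in NahG more often than other genes.

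Because PYK10 is typical of roots, other root markers were read beside it. Only 2 of 12 listed root markers had a named probe set, PYK10 and EXPA7. EXPA7 read 31.0 and 30.6 in NahG, 27.7 and 29.4 in ein2, 24.0 and 32.1 in coi1, 16.5 and 21.5 in stage 6.0 wild type, and 18.4 and 15 in stage 3.9 wild type, below the filter throughout. The summed signal of both markers was 149 and 126 in NahG, 65.4 and 62.8 in ein2, 46.7 and 50.9 in coi1, 29.0 and 50.9 in stage 6.0 wild type, and 38.7 and 34.7 in stage 3.9 wild type. In NahG most of this sum was PYK10, chosen for being high there. The higher NahG sum thus follows from the choice of members and says nothing further about root markers. The part of other tissue in the result was not tested. In these bulk leaf samples, more cells of a type and more RNA per cell cannot be told apart. Among the mesophyll markers 4 of 13 were named, and all 4 were tested. Their summed signal was 5592 and 5273 in NahG, 4285 and 3890.2 in ein2, 5058 and 6125 in coi1, 3638 and 4684 in stage 6.0 wild type, and 17107 and 12564 in stage 3.9 wild type. In NahG against wild type at stage 6.0 limma called 2 of them higher, the photosystem subunit PSAN by 1.56 ± 0.20 (adjusted p = 0.000683) and the antenna protein LHCB4.2 by 1.33 ± 0.33 (adjusted p = 0.0303), where 3.61% of all tested probe sets were called higher. RCA, the Rubisco activase, was at 0.04 (adjusted p = 0.94) and PRK, phosphoribulokinase, at -0.09 (adjusted p = 0.829). The part of these markers in the members' values was not tested.

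CLE44 and STR18 were the remaining genes with a symbol. CLE44 encodes a signalling peptide of the TDIF type, known for its part in vascular tissue. CLE44 read 208 and 142 in NahG, 102 and 117 in ein2, 80.13 and 90.14 in coi1, 67.1 and 88.2 in stage 6.0 wild type, and 101 and 102 in stage 3.9 wild type. Its difference of 1.01 lay next to the threshold. CLE41, known to encode the same peptide, was 0.74 higher in NahG and fell outside, with a stage difference of -1.08 in wild type. STR18, a sulfurtransferase, read 137 and 78.6 in NahG, 23.9 and 22.8 in ein2, 23.7 and 32.6 in coi1, 29.3 and 31 in stage 6.0 wild type, and 29.1 and 8.67 in stage 3.9 wild type. Its difference was 1.38 and its ein2 mean was below that of wild type.

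AT2G15960 had the highest signal among the members. It read 1982 and 1951 in NahG, 1526 and 1608 in ein2, 712 and 739.9 in coi1, 1053 and 574 in stage 6.0 wild type, and 977 and 841 in stage 3.9 wild type. Both NahG and both ein2 arrays lay above every coi1 and wild type array. The NahG difference was 1.32, and at this signal it was close to that with 1 added (1.34) and with 64 added (1.27).

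The remaining named members had NahG differences between 1.01 and 1.31. AT5G21105, an ascorbate oxidase-type gene, read 208 and 168 in NahG, 57.9 and 57.3 in ein2, 71.4 and 72.9 in coi1, 73.6 and 79.9 in stage 6.0 wild type, and 88.7 and 70.7 in stage 3.9 wild type. In ein2 it lay below every wild type array. AT1G62790, a lipid-transfer type gene, read 348 and 303 in NahG, 116 and 161 in ein2, 89 and 114 in coi1, 164 and 128 in stage 6.0 wild type, and 167 and 125 in stage 3.9 wild type. Only AT1G62780 separates AT1G62790 from the inhibitor gene AT1G62770 on the TAIR10.1 map, and it averaged 139.9 in NahG and 151 in wild type at stage 6.0, a difference of -0.16. AT5G38020, a methyltransferase of the SABATH family, read 124 and 78.3 in NahG and 30.5 and 48.4 in wild type at stage 6.0. AT1G50590, a pirin-like gene, read 113 and 81 in NahG and 36.1 and 39.1 in wild type at stage 6.0. In 3 members a NahG array read below an array of another group. AT1G27030 was 1 of them, with 163 and 312 in NahG, 214 and 175 in ein2, 74.5 and 64.9 in coi1, 103 and 98.7 in stage 6.0 wild type, and 101 and 195 in stage 3.9 wild type. Its NahG difference of 1.05 was 0.61 without NahG array 2. AT1G77540, an acetyltransferase-like gene, read 246 and 206 in NahG, against 149 and 251 in ein2, and AT5G47550 read 471 and 421 in NahG, against 287 and 440.0 in ein2. AT2G29995, AT2G15760 and AT4G39320 differed by 1.31, 1.26 and 1.12.

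**Figure D3:**
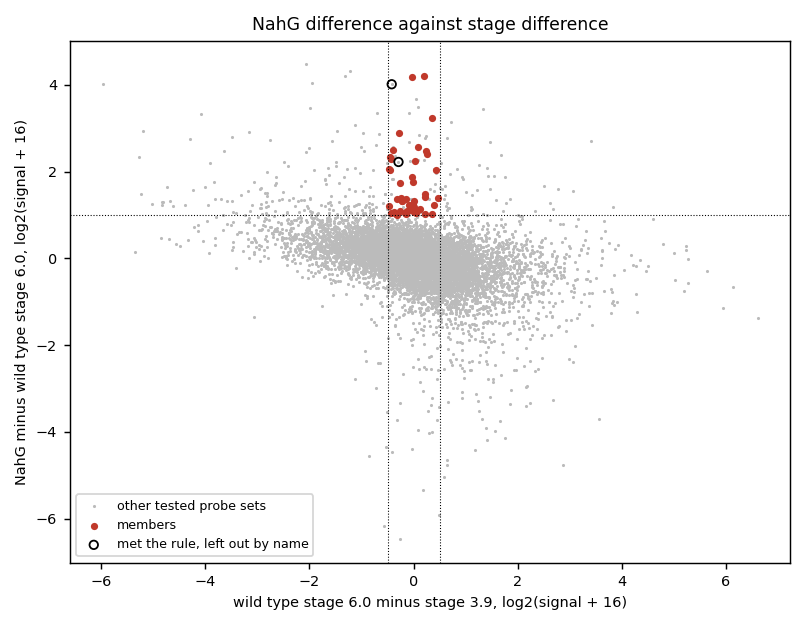
NahG minus wild type at stage 6.0 (vertical) against wild type stage 6.0 minus stage 3.9 (horizontal), both on log2(signal + 16), for all 12184 tested probe sets; dotted lines mark the thresholds of 1, -0.5 and 0.5. The 48 members lie in the window between the vertical lines up to 4.21, most of them near its lower edge. The open circles are AT3G27400 and THI2.1, left out by name. This window also holds 33 other probe sets, at or under -0.5 in coi1, a limit that is not drawn.

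The members closest above the NahG threshold were AT2G32220 at 1.01, CLE44 at 1.01 and AT5G47550 at 1.02, and closest below it lay AT5G26270 at 0.997, ARD4 at 0.95 and EXPA4 at 0.92. At the stage limit AT1G62770 with -0.48 and STR18 with 0.47 were inside, and AT3G53980 with 0.501 and AT1G62510 with -0.55 outside. At the coi1 limit AT1G10585 with -0.48 was inside, and PR-1-LIKE with -0.54 and AT1G22890 with -0.57 outside.

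In wild type the stage values were spread on both sides of 0, as the limits require. Of the members 19 were higher and 29 lower at stage 6.0 than at stage 3.9, with a median of -0.04 against 0.05 over all tested probe sets. Values for coi1 were bounded from below only. They ran from -0.48 to 0.81 with a median of -0.02, against 0.04 over all, and 23 members were above 0 and 25 below (background 55.2% above 0). Both coi1 arrays lay above both wild type arrays at stage 6.0 for 7 members (background 28.7%) and below both for 13 (background 20.2%). AT2G16990, a major facilitator transporter, read 118 and 148 in coi1, against 57 and 82 in wild type at stage 6.0, the highest coi1 difference at 0.81.

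Some members left the stage or coi1 limits when the added constant was changed. With 1 in place of 16 added before the logarithm, 9 of the 48 were at -0.5 or below in coi1 and 13 left the stage window. Of the 9, 6 were among the 26 members with a wild type mean under 50 at stage 6.0, and 3 among the other 22, a difference that was not tested. AT1G10585 then stood at -1.06 and AT4G17470 at -0.99 in coi1, both from signals near or under 20. The label of the set thus holds on the stated scale for all 48 by construction, and on the scale with 1 added for fewer.

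The ein2 arrays were not used in choosing the members, so ein2 against wild type at stage 6.0 was tested, although the rule did use the wild type arrays on the other side. None of the 48 members passed in limma at an adjusted p under 0.05, where 0.0492% of all tested probe sets were called higher and 0.0739% lower. With 64 in place of 16 added, and after quantile normalization, 1 member passed, a probe set without a gene name. At an unadjusted p under 0.05, 11 members were higher and 0 lower, beside 4.52% of all tested probe sets higher and 5.55% lower. The members' median difference in ein2 was 0.30, against 0.01 over all tested probe sets, and 36 of 48 were above 0 (background 50.9%). A difference above 0.5 was found in 15 members (background 4.92%). Both ein2 arrays lay above both wild type arrays at stage 6.0 for 25 members (background 20.1%) and below both for 5 (background 21%). Since a low reading on the shared wild type arrays raises the NahG and the ein2 difference alike, these shares are not independent of the choice of members.

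Stage 3.9 gave another wild type level for the same ein2 arrays, which the rule used only to bound the stage difference. Against it the members' median in ein2 was 0.24, with 0.06 over all tested probe sets. Above 0.5 were 13 members (27.1%), close to the background of 23%. Both ein2 arrays lay above all 4 wild type arrays for 18 members (background 8.64%). These 4 include the wild type arrays that NahG was compared with in choosing the members. The stage limit also ties the members' stage 3.9 level to those arrays, so these shares are not independent of the choice either. The backgrounds also hold probe sets that change with stage, which the rule kept out of the members, so the shares are not like for like.

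The highest single values in ein2 belonged to a few genes. AT5G52390 stood 1.63 ± 0.38 (SE) above wild type at stage 6.0, with a limma adjusted p of 0.142. Without 1 array this difference ran from 1.35 to 1.92. AT2G15960 differed by 0.99 ± 0.25 (adjusted p = 0.168 in limma). AT1G79390 read 217 and 217 in ein2, against 99.1 and 128 in wild type at stage 6.0, a difference of 0.86 ± 0.17 with an adjusted p of 0.115. AT2G16990 read 152 and 131 in ein2 and differed by 0.89 ± 0.20 (adjusted p = 0.132). All 4 had both ein2 arrays above all 4 wild type arrays. The lowest adjusted p, 0.0531, was that of a probe set without a gene name, at 149.8 and 116 in ein2 and 43.4 and 59.6 in wild type at stage 6.0 (1.14 ± 0.18). It passed with 64 added (adjusted p = 0.0432 in limma) and after quantile normalization (adjusted p = 0.0365). Whether members passed also depended on which arrays were in the fit, as did the calls over all tested probe sets.

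Further members had an unadjusted p under 0.05 in the same test. AT1G77540 differed by 0.83 ± 0.26 (adjusted p = 0.283 in limma), AT1G27030 by 0.84 ± 0.31 (adjusted p = 0.402), and AT2G32220, a ribosomal L27 gene, by 0.57 ± 0.19 (adjusted p = 0.34). By contrast AT2G19970, among the highest in NahG, differed by 0.16 ± 0.28 in ein2, and AT3G43270 by 0.13 ± 0.31. The size in NahG and that in ein2 share the wild type arrays and were not correlated for this reason. The median standard error of the ein2 difference was 0.25 over the members and 0.21 over all tested probe sets.

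**Figure D4:**
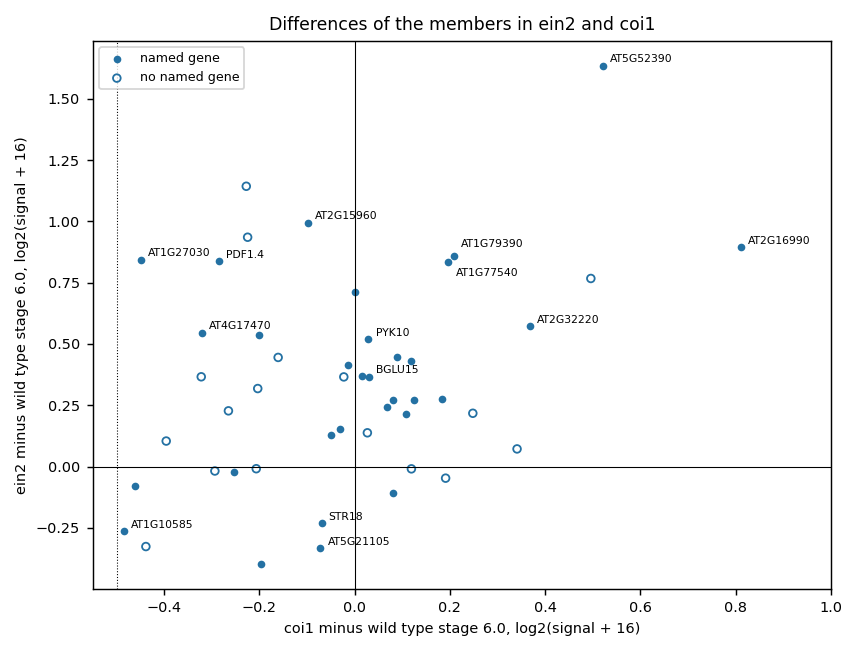
Difference from wild type at stage 6.0 in ein2 (vertical) and in coi1 (horizontal) for the 48 members, on log2(signal + 16); filled points have a named gene, open points none, and the dotted line is the coi1 limit of -0.5. Points lie mostly above 0 in ein2 (36 of 48) and on both sides of 0 in coi1 (23 above), and AT5G52390 is the highest at 1.63. Both axes share the wild type arrays.

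The non-members most like the set across the 10 arrays, by Pearson correlation with the mean of the members' standardised values, were AT3G27400 at 0.991, PR-1-LIKE at 0.983, AT1G54020 at 0.969, AT2G18210 at 0.967 and AT1G28400 at 0.956. The members' own correlations had a median of 0.910 and a lowest value of 0.602. AT3G27400, a pectate lyase, read 1060.0 and 697 in NahG, 88.3 and 87.6 in ein2, 24.1 and 31 in coi1, 46.2 and 31.2 in stage 6.0 wild type, and 86.2 and 35.4 in stage 3.9 wild type. AT2G18210 was 2.82 higher in NahG and missed the set with -0.94 in coi1, and AT1G28400 was 2.88 higher and missed it with a stage difference of -0.98. These values describe shapes dominated by the NahG arrays and were not tested.

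Genes of the hormone pathways around the set were named only in part. Of 449 genes on 22 lists of pathways and markers, 64 had a named probe set, 40 were tested and 2, PDF1.4 and PYK10, were members. In NahG against wild type at stage 6.0, limma called 3.61% of all tested probe sets higher and 5.5% lower at an adjusted p under 0.05. On the salicylate list 4 of 36 genes were tested, of which 1 was called higher and 2 lower. WRKY53, a regulator of leaf senescence, fell by 2.11 ± 0.23 (adjusted p = 0.000237 in limma), and GRX480, a glutaredoxin induced by salicylic acid, fell by 1.97 ± 0.25 (adjusted p = 0.000689). BSMT1, a methyltransferase that acts on salicylic and benzoic acid, was higher by 2.15 ± 0.44 (adjusted p = 0.0111 in limma). BSMT1 read 257 and 193 in NahG, and 72.4 and 16.6 in stage 6.0 wild type. It passed the signal filter only through the NahG arrays.

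On the jasmonate response list 6 of 36 genes were tested, with 4 called higher and 1 lower, and a list median of 2.29. The 4 were PDF1.2, PDF1.2b, JAL23 and THI2.1, the last of which was excluded from the members by name. THI2.1 passed the signal filter only through the NahG arrays, so it had to be high there to be tested. PDF1.2 and PDF1.2b may share target, so the 4 are not separate results. JAL23, a jacalin-type lectin, was higher by 2.35 ± 0.26 in NahG (adjusted p = 0.000243 in limma), and its coi1 difference was -1.2. OSM34, an osmotin-like gene, was higher by 2.72 ± 0.301 in NahG and stood at -1.92 in coi1 (adjusted p = 0.0155 in limma). On the pectin and cell wall list 5 of 31 genes were tested, none a member, and 2 called higher, ATPMEPCRB, a pectin methylesterase, by 2.87 ± 0.31 and the expansin EXPA8 by 1.23 ± 0.301 (adjusted p = 0.000223 and 0.0285).

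The ratio of 3' to 5' signal of the ubiquitin control was 1.66 and 1.60 in NahG, 1.45 and 1.52 in ein2, 1.38 and 1.54 in coi1, 1.34 and 1.3 in stage 6.0 wild type, and 2.12 and 2.24 in stage 3.9 wild type. For GAPDH it was 1.28 and 1.21 in NahG, 1.13 and 0.928 in ein2, 1.06 and 1.2 in coi1, 1.17 and 1.02 in stage 6.0 wild type, and 0.974 and 0.958 in stage 3.9 wild type. For actin it was 2.60 and 2.11 in NahG, 2.06 and 1.95 in ein2, 1.54 and 2.56 in coi1, 2.08 and 1.77 in stage 6.0 wild type, and 2.43 and 2.70 in stage 3.9 wild type. All 3 ratios were higher on both NahG arrays than on both stage 6.0 wild type arrays, and for ubiquitin the stage 3.9 arrays were the highest of all. The part of RNA quality in the members' values was not tested.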

How the data were processed

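Leaf RNA was measured on 10 arrays, 2 in each of 5 groups. The deposited values are intensity signals on a linear scale that the authors made with MAS5, per the submitters' processing notes, without a version. Arrays were set to a common 2% trimmed mean of 100, taken over non-control probe sets. Differences are between group means of log2(signal + 16). The ein2, coi1, NahG and stage contrasts were fitted in limma 3.58.1 (R 4.3.3, lmFit and eBayes with trend) over all 10 arrays, with 5 residual and 5.74 prior degrees of freedom, adjusted by Benjamini-Hochberg over 12184 probe sets. Only the ein2 contrast is tested for members. On simulated ein2 data 200 of 12184 probe sets were changed. Of changes of log2 1, 48.0% were recovered, and of log2 2, 90.8%, with 3.50% false calls. The real ein2 contrast called only 6 probe sets higher and 9 lower, so its adjusted threshold was stricter. The recovered shares therefore need not hold for the members.

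Members and lists were chosen with earlier results of these data known. Named genes were those naming 1 gene among the 20 highest NahG differences, the 5 highest NahG signals, members on a list or of shared symbol letters, the 3 on each side of a threshold, and the 5 most alike non-members. Other members and list genes were named after their values were seen. Gene names came from the platform table and TAIR10.1 symbols, which were also used for gene order. Promoter motifs were not searched. Figures were drawn with matplotlib 3.10.9 in python 3.11.15 (numpy 2.4.6, pandas 2.3.3). Alternatives are given in the closing section. The number of arrays limits the precision.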

Additional observations from a re-analysis of the deposited data

How the results depend on the processing

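The number of members rested on the arrays and on the added constant. It was 48 as reported, 41 with 1 added (30 shared), 38 with 64 added (19 shared), 58 when no filter was set, 30 when it was raised to 100, 51 after quantile normalization (45 shared), 47 scaled to hybridisation controls (23 shared) and 48 with the values as deposited. Without 1 array it ran from 25 (without NahG array 1, 18 shared) to 73 (without wild type stage 6.0 array 1, 32 shared), with 35 without NahG array 2 (25 shared). Without either NahG array 19 members left by construction, since the filter asks for 2 arrays. Of the 48, 8 met the 3 thresholds without each of the 10 arrays in turn, among them AT2G19970, AT5G19110, AT1G22570, PYK10 and AT4G39320. The signal filter was not applied in this count. Among these named genes only AT1G22570 passed it on arrays outside NahG, so the others are among the 19 that left. For AT2G19970, at 1.11 and 0.805 in stage 6.0 wild type, the coi1 limit could not be missed with 16 added. The same held for some members without a gene name.

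Over the 48, the median NahG difference was 1.61 with 1 added and 0.89 with 64 added, and 1.19 to 1.45 without 1 array. The ein2 median was 0.50 with 1 added, 0.15 with 64 added, 0.15 scaled to hybridisation controls, where all tested probe sets had -0.23, and 0.24 to 0.31 without 1 array. The coi1 median was -0.0407 after quantile normalization, -0.0582 scaled to hybridisation controls and -0.0592 to -0.0188 without 1 array. The stage median was 0.40 scaled to hybridisation controls, where the median of all tested probe sets was itself 0.66, and -0.17 to 0.05 without 1 array. The causes were not tested.

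Members called in ein2 numbered 0, or 1 with 64 added and 1 after quantile normalization (in both a probe set without a gene name). All calls were then 8 higher and 14 lower with 64 added, and 9 higher and 8 lower after quantile normalization. When 1 array was left out, the number called varied for members and for all tested probe sets alike. The ein2 difference of AT5G52390 ran from 1.35 to 1.92 without 1 array. In wild type the array number stands for the stock. Whether it pairs the other groups cannot be settled from 2 arrays a group. Correlations of the deviations at shared numbers were 0.337 for NahG and ein2, -0.133 for NahG and coi1, and 0.216 for ein2 and coi1. For the wild type stocks the correlation was 0.0762. With the number as a replicate block, 2 members were called in ein2 (AT5G52390, adjusted p 0.0304, and that probe set), and all calls were 21 higher and 31 lower, against 6 and 9 without it. Low signals limit the folds of members near the bottom of the scale.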
